A study of Mus musculus with 6 samples.

Results

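The Hox cluster genes are the 39 mouse genes named Hoxa, Hoxb, Hoxc or Hoxd plus a number. They were chosen by symbol alone, with Ensembl identifiers matched to symbols, and all 39 were found among the 56953 genes of the deposited table. They were examined in 6 murine pancreatic ductal adenocarcinoma (PDAC) cell lines, KPC142, KPC180, KPC469, KPC490, KPC630 and KPC850, each sequenced once as polyadenylated RNA. KPC is the strain name that the labels give for the mice of origin, and they state no passage or age. The study concerns lines that draw few or many CD8+ T cells into tumours, but the labels give no such class for any line, so each line is described by its own value and no groups are compared. Libraries held 16471558 to 18701274 counts, and values are in CPM, counts scaled to a common library total after TMM adjustment. With 1 library per line there is no replicate, and all intervals are 95% intervals that cover counting error only.

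Hox genes encode homeodomain transcription factors that give cells of the embryo their position along the head-to-tail axis. They lie in 4 clusters, and genes of the same number in different clusters (paralogues) descend from 1 ancestral gene. Along a cluster, low numbers are used early and towards the head and high numbers later and towards the tail, a relation called collinearity. Unused stretches are held silent by Polycomb complexes, which modify histones, and are kept active elsewhere by Trithorax complexes. Many adult cells keep part of this pattern, so the expressed stretch of each cluster can be read as a record of position. The pancreas buds from the foregut endoderm, a region marked by the ParaHox gene Pdx1.

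In these 6 lines the Hox clusters were almost without reads. Of the 39 genes, 0 reached 1 CPM in any line, whereas 56.9% of the 21829 protein-coding genes in the table and 24.5% of all its genes did. The 4 clusters therefore had no expressed stretch at 1 CPM in KPC142, KPC180, KPC469, KPC490, KPC630 or KPC850, and so none at 10 CPM. Summed over all 39 genes and all 6 libraries there were 26 counts out of 104678017, or 0.248 CPM (0.162 to 0.364). Of the 234 values formed by 39 genes and 6 lines, 221 (94.4%) were 0. In bulk RNA a level this low cannot tell a few cells with the transcript from a little RNA in every cell.

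The promoter windows of Hoxa13, Hoxa5, Hoxd8 and Skap2 are printed because they set a silent gene beside an active neighbour. Each runs from 250 bases before to 50 after an annotated start, 5′ to 3′ on the gene's strand, from RefSeq on build GRCm38.p6. Capitals mark CG dinucleotides, which mammalian genomes have mostly lost outside the CpG islands of promoters. Hoxa13 (chr6:52260831-52261130, minus strand) had the most counts of any Hox gene and 45 CG dinucleotides in this window. Hoxa5 (chr6:52204538-52204837, minus strand) had counts in 2 lines and 29 CG dinucleotides. Hoxd8 (chr2:74704365-74704664, plus strand) had 1 count in all and 6 CG dinucleotides. Skap2 (chr6:52012500-52012799, minus strand), the nearest protein-coding gene outside the head end of the Hoxa cluster, was expressed in every line and had 28.
Hoxa13: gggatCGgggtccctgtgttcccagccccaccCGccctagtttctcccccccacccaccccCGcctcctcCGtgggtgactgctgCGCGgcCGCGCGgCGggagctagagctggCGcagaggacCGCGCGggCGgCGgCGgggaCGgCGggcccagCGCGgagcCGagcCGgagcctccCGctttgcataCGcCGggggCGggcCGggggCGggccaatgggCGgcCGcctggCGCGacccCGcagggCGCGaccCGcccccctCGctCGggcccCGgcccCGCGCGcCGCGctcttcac
Hoxa5: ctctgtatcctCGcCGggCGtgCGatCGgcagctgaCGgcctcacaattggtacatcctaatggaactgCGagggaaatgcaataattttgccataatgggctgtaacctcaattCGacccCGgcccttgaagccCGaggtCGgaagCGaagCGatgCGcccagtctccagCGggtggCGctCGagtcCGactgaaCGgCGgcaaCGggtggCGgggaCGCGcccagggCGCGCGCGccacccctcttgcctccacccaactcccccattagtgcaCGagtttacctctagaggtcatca
Hoxd8: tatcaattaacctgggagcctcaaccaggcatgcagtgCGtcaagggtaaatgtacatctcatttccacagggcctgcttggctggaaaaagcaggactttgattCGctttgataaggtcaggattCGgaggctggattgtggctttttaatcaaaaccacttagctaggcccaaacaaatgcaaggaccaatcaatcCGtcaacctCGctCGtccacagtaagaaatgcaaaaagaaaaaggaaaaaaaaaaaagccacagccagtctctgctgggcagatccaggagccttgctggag
Skap2: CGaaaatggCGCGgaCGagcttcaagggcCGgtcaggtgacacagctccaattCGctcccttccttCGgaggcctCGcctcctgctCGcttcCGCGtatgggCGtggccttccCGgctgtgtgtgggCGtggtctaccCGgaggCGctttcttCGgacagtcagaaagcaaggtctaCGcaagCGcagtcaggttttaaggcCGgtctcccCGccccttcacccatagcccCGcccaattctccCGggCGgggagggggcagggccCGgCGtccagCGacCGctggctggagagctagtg

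Reads were found for 10 of the 39 genes, 8 of them in 1 line only, while 29 genes (74.4%) had 0 counts in every library. Over the protein-coding genes of the table, 25.4% had 0 counts in every line and 74.6% had at least 1 count. For a gene with 0 counts in all 6 libraries the data allow up to 0.0287 CPM (3 counts over the pooled total), and in a single library up to 0.160 to 0.182 CPM by the same floor of 3 counts, which is lower than the upper limit of the 95% interval. None of the 39 deposited values in any line had a fractional part.

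The Hoxa cluster on chromosome 6, with 11 genes, held 20 of the 26 counts (76.9%). Most of these reads came from Hoxa13, Hoxa5, Hoxa4 and Hoxa3. Summed over the cluster KPC490 and KPC630 had 9 counts each, KPC180 and KPC850 had 1 each, and KPC142 and KPC469 had 0. KPC490 thus stood at 0.523 CPM (0.239 to 0.992) and KPC630 at 0.479 CPM (0.219 to 0.910). Hoxa2, Hoxa6, Hoxa7, Hoxa9, Hoxa10 and Hoxa11 had 0 counts in every line.

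Hoxa13 (ENSMUSG00000038203), the gene at the tail end of the cluster and known for its role in hindgut, limb and urogenital development, had the most reads. It had 7 counts in KPC630, 3 in KPC490 and 1 in KPC850, and 0 in KPC142, KPC180 and KPC469. The 7 counts amount to 0.373 CPM (0.150 to 0.768), the highest level of any Hox gene in any line, and to 0.151 CPM per kb of exon. This interval overlaps those of 0 counts, which reach 0.201 CPM in KPC469, 0.221 in KPC142 and 0.224 in KPC180. Such overlap does not settle whether the lines differ. With 0 counts entered as 3, KPC630 had 2.28 times the level of KPC469, 2.07 times that of KPC142 and 2.05 times that of KPC180. No interval was computed for these ratios. Against KPC490 the ratio of KPC630 was 2.14 with an interval of 0.488 to 12.8, so these lines did not differ beyond counting error. Hoxa13 alone gave 42.3% of all Hox reads.

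Towards the head end of the Hoxa cluster counts were lower still. Hoxa3 (ENSMUSG00000079560), Hoxa4 (ENSMUSG00000000942) and Hoxa5 (ENSMUSG00000038253), which are neighbours and take part in patterning of the neck and thorax, had 2 counts each in KPC490. That is 0.116 CPM (0.0141 to 0.420) for each. Hoxa5, which is needed for lung and foregut development, also had 1 count in KPC180. In KPC490 the Hoxa paralogue numbers with any read were 3, 4, 5 and 13, which is not an unbroken run, in KPC180 number 5 and in KPC850 number 13.

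**Figure D1:**
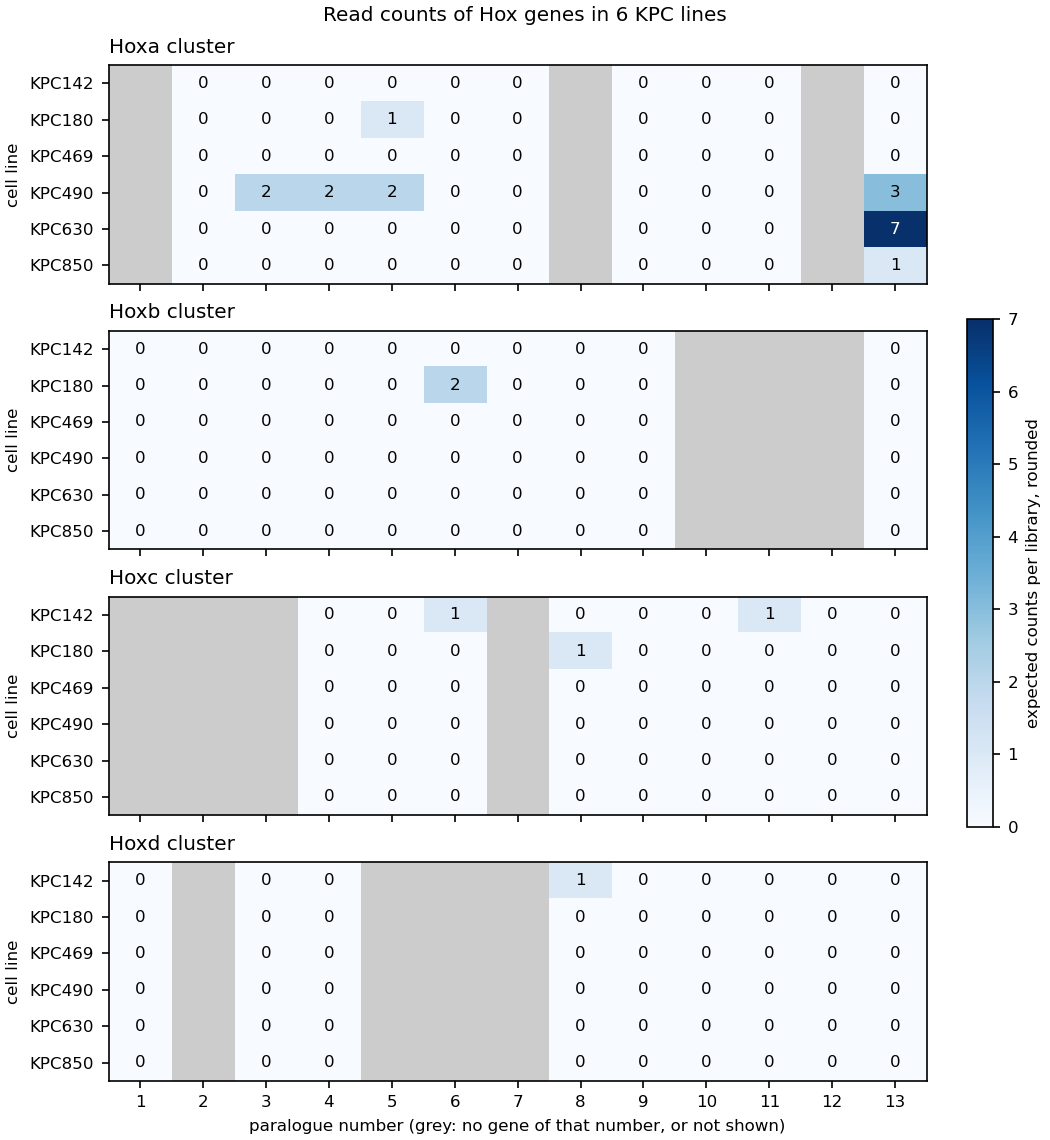
Rounded expected counts of Hox genes, with a panel per cluster, paralogue number on the horizontal axis and the 6 lines on the vertical axis; the number in a cell and its shade are the count, and grey marks numbers that a cluster lacks or that are not shown. The highest cell is Hoxa13 in KPC630 with 7 counts, and most cells are 0.

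The other 3 clusters together had 6 counts. In the Hoxb cluster on chromosome 11, with 10 genes, Hoxb6 (ENSMUSG00000000690) had 2 counts in KPC180 and the other 9 genes had 0 counts in every line. In the Hoxc cluster on chromosome 15, with 9 genes, Hoxc6 and Hoxc11 had 1 count each in KPC142 and Hoxc8 had 1 count in KPC180. In the Hoxd cluster on chromosome 2, with 9 genes, the sole read was 1 count of Hoxd8 in KPC142. Over all 6 libraries the sums were 0.0191 CPM (0.00231 to 0.0690) for Hoxb, 0.0287 CPM (0.00591 to 0.0838) for Hoxc and 0.00955 CPM (0.000242 to 0.0532) for Hoxd, against 0.191 CPM (0.117 to 0.295) for Hoxa.

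Read by paralogue number over the 4 clusters, the counts were 2 for number 3, 2 for number 4, 3 for number 5, 3 for number 6, 2 for number 8, 1 for number 11 and 11 for number 13. Numbers 2, 7, 9, 10 and 12 had 0 counts. Per kb of exon, with exon lengths of 0.874 to 6.01 kb over the members, the sum of a paralogue group reached 0.151 CPM per kb for number 13, which is Hoxa13 in KPC630, and 0.0729 CPM per kb or less for every other number. Hoxb13, Hoxc13 and Hoxd13 contributed 0 counts to number 13.

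Between lines, KPC490 and KPC630 had 9 summed Hox counts each, KPC180 had 4, KPC142 had 3, KPC850 had 1 and KPC469 had 0. All 9 counts of KPC490 and all 9 of KPC630 lay in the Hoxa cluster. Outside Hoxa both had 0 counts, and the reads came from KPC142 and KPC180. KPC142 had 2 in Hoxc and 1 in Hoxd, and KPC180 had 2 in Hoxb and 1 in Hoxc. KPC469 was the line without a Hox read, with an interval that reaches 0.201 CPM for all 39 genes together. The intervals of KPC490 (0.239 to 0.992 CPM) and KPC630 (0.219 to 0.910 CPM) lie above it. KPC490 had 8.97 times the sum of KPC850, with an interval of 1.24 to 393.05 that rests on 1 count in KPC850. The lines set against each other here were picked after their counts were seen, and the intervals do not allow for that choice. With no member at 1 CPM, 0 Hox genes could be counted as differing 4-fold or more over the lines, a range that 27.1% of the 13935 genes at 1 CPM or more in a line had.

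Transcripts that share the clusters with the Hox genes were as low. The GENCODE vM21 annotation places 46 further genes inside the 4 clusters, of which 29 are in the table, and 26 of these had 0 counts in every line. Of the 29, 3 are protein-coding and most others noncoding. None of the 29 reached 1 CPM in a line, which 24.5% of all 56953 genes did. The share of all genes with 0 counts in every line was not computed. The 0-count genes included Hotair, a long noncoding RNA of the Hoxc cluster, Haglr in the Hoxd cluster, the antisense genes Hoxa11os, Hoxb3os, Hoxb5os and Hoxd3os1, and the 3 further protein-coding genes of the clusters, Gm28308, Gm28230 and 5730596B20Rik. Gm28308 spans Hoxa2 to Hoxa6 and Gm28230 spans Hoxd3 and Hoxd4 on the same strand, so reads of these Hox genes had not been counted under those names. The 6 microRNA genes in the table, Mir10a, Mir10b, Mir196a-1, Mir196a-2, Mir196b and Mir615, also had 0 counts, but poly(A) libraries do not capture mature microRNAs.

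The 3 inside genes with reads all lay in the Hoxa cluster. Hotairm1, a noncoding RNA of the cluster, had 2 counts in KPC490 and 2 in KPC630. Hoxaas3, which spans Hoxa3 to Hoxa7 on the opposite strand, had 1 count in KPC490, and 9530018H14Rik, which overlaps no Hox gene, had 1 count there. These are the 2 lines with the most Hoxa reads. The libraries were made with a stranded kit, but whether strand was used in counting is not given in the sources used here, so reads of Hoxa3, Hoxa4 and Hoxa5 cannot be told apart with certainty from those of their antisense partners.

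Most protein-coding genes around the clusters were expressed. Of the 24 nearest protein-coding genes, 3 on each side of each cluster, 19 were at 1 CPM or more in every line and 5 stayed under 1 CPM in every line. The same 19 were also at 10 CPM or more in every line, a level for which the share of all genes was not computed. Of all protein-coding genes, 47.2% reached 1 CPM in every line. At the head end of the Hoxa cluster, the adaptor gene Skap2 had 35.7 CPM in KPC850, 34.8 in KPC490, 34.3 in KPC142, 27.95 in KPC630, 26.2 in KPC180 and 23.0 in KPC469. Beside Hoxd1, Mtx2, which codes for a mitochondrial import protein, had 59.1 CPM in KPC142, 54.8 in KPC180, 46.0 in KPC469, 43.3 in KPC630, 41.6 in KPC490 and 38.8 in KPC850. Both were expressed at a similar level in all lines, with a ratio of highest to lowest line of 1.55 (1.37 to 1.76) for Skap2 and 1.52 (1.38 to 1.68) for Mtx2. Beside Hoxc13 and Hoxc4, Calcoco1 ran from 29.3 CPM in KPC630 to 45.6 in KPC142 and the DNA repair gene Smug1 from 16.5 CPM in KPC469 to 30.5 in KPC142.

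The 5 silent flanking genes were the homeobox genes Evx1 and Evx2, with 0 counts in every line, and Skap1, Ttll6 and Calcoco2 around the Hoxb cluster, with 0.300 CPM or less. Evx1 stands at the Hoxa13 end of its cluster and Evx2 at the Hoxd13 end, and both belong to the extended Hox family. Counting along the chromosome, the Hoxa cluster and Evx1 lay in a run of 14 protein-coding genes under 1 CPM in every line, between Skap2 and Hibadh. The Hoxb run had 13 such genes between Atp5g1 and Snx11, the Hoxd run 11 between Lnpk and Mtx2, and the Hoxc run 9 between Calcoco1 and Smug1. Of the 3543 such runs over the chromosomes, with a median length of 1 gene, 74 were longer than the Hoxa run and 129 longer than the Hoxc run.

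**Figure D2:**
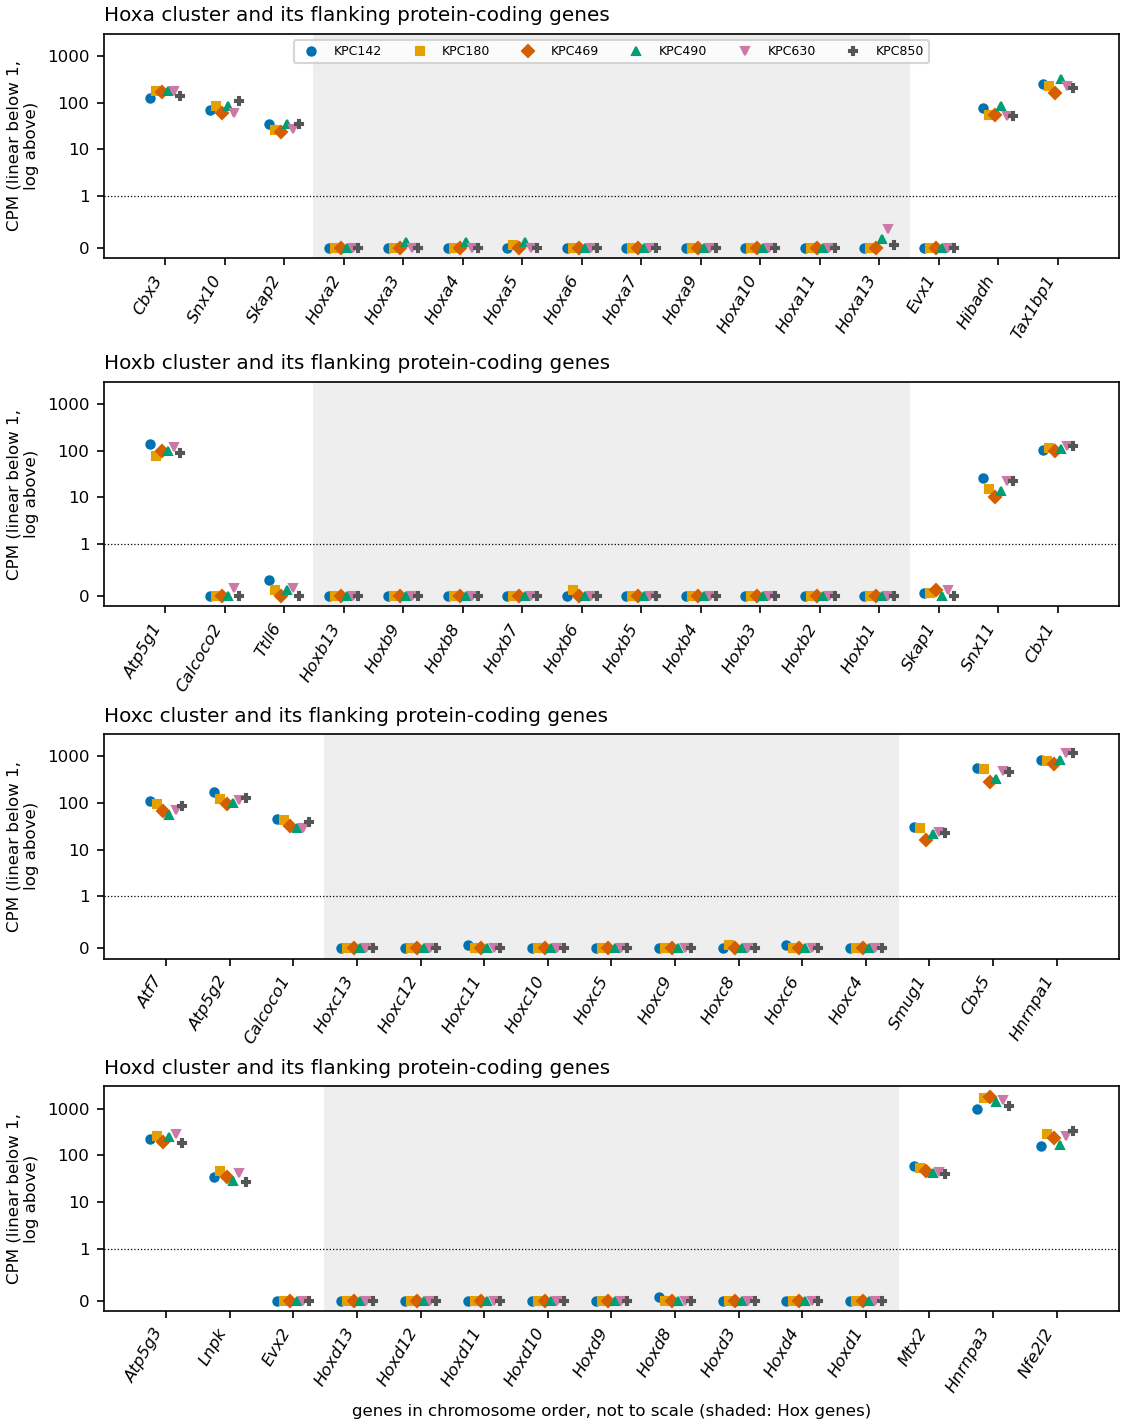
Level in CPM (linear below 1, logarithmic above) of Hox genes, shaded, and of 3 protein-coding genes on each side, ordered by annotated start and not to scale, with 1 symbol per line. Shaded genes lie at 0 or below 0.4 CPM, and of the 24 flanking genes 19 lie at 10 CPM or more in all 6 lines. The share of all genes at that level was not computed.

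The CG content of the Hox promoter windows varied widely. RefSeq windows were at hand for 22 of the 39 genes, with 24 starts. They held 4 to 45 CG dinucleotides per window with a median of 14.5, and 11 of 24 (45.8%) held 20 or more. CG was counted on the printed strand; it reads the same on both. Of the 12494 windows of protein-coding genes at 1 CPM or more in a line, 52.7% held 20 or more (median 20), and of the 7949 windows of those under 1 CPM in every line, the Hox windows among them, 11.4% did (median 4). Over all 20443 protein-coding windows the share was 36.6% (median 13). The Hox share of 45.8% lay between this and the 52.7% of genes at 1 CPM or more in a line. Among Hox windows Hoxa13 was the richest and Hoxa9, Hoxd4 and the upstream start of Hoxd11 the poorest, with 4 each. The TATA box letters TATAAA, searched on both strands, were found in 4 of the 24 Hox windows (16.7%) and in 12.3% of all protein-coding windows.

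**Figure D3:**
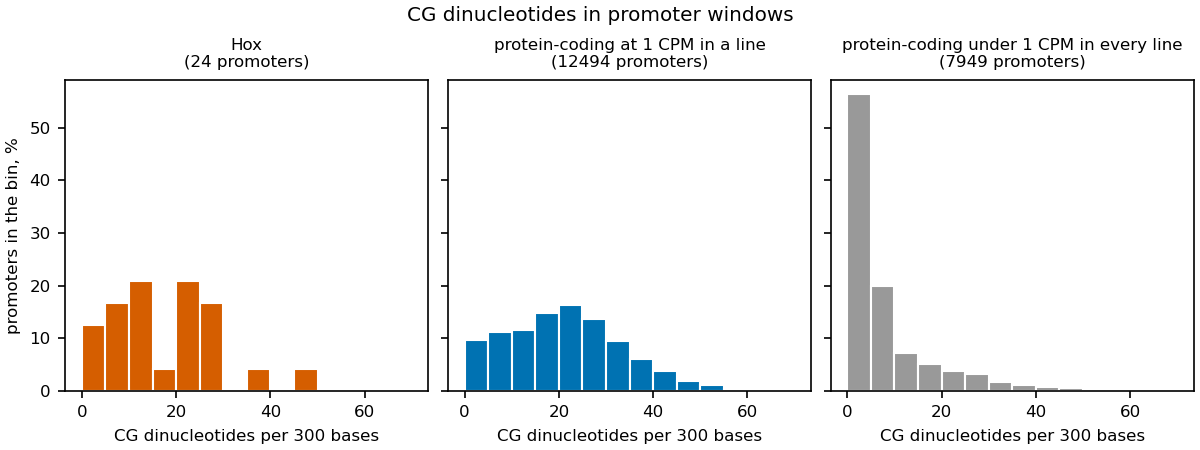
Share of promoter windows, in percent, by CG dinucleotides per window in bins of 5, for Hox genes, for protein-coding genes at 1 CPM or more in a line and for those under 1 CPM in every line. Hox windows spread from 4 to 45, with a median of 14.5, against medians of 20 and 4.

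The partners of Hox proteins were present. The TALE homeodomain proteins Pbx, Meis and Pknox bind DNA together with Hox proteins. Of their 9 genes 8 reached 1 CPM in a line, 6 of them in every line. Of protein-coding genes 56.9% reached 1 CPM in a line and 47.2% in every line. Pbx2 had 42.1 CPM in KPC180, 41.8 in KPC469, 41.5 in KPC630, 41.6 in KPC490, 36.9 in KPC850 and 21.03 in KPC142. Meis2 was highest in KPC490 at 48.8 CPM and lowest in KPC469 at 24.1 CPM, and Pknox1 stayed between 23.0 and 25.4 CPM. Of the 8 genes 3 differed 4-fold or more over the lines, near the 27.1% of all genes at 1 CPM or more in a line. Among genes at 10 CPM or more in a line, of which 15.5% had such a range, Meis1 did, with 10.01 CPM in KPC142 and 1.53 in KPC469 (ratio 6.56, 4.38 to 10.2). Pknox2 had 0 counts in every line.

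Of the 6 ParaHox and Cdx genes, 2 (33.3%) reached 1 CPM, both in every line, and Cdx1, Cdx4, Gsx1 and Gsx2 had 0 counts throughout. Among protein-coding genes 56.9% reached 1 CPM in a line and 47.2% in every line. Pdx1, the foregut and pancreas factor, lay between 43.7 CPM in KPC180 and 82.5 in KPC630. Cdx2, a factor of the intestine that binds Hox clusters in the posterior embryo, had 103.3 CPM in KPC490, 62.9 in KPC630, 41.0 in KPC850, 18.2 in KPC142, 8.99 in KPC469 and 7.83 in KPC180. The ratio of KPC490 to KPC180 was 13.2 (11.0 to 15.9). The 3 lines with the most Cdx2 were those with Hoxa13 reads, 3 counts in KPC490, 7 in KPC630 and 1 in KPC850; this was noticed after the values were seen, and whether they are related was not tested.

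Polycomb and Trithorax genes were expressed throughout. All 27 Polycomb genes and all 13 genes of the Trithorax and demethylase list were at 1 CPM or more in every line, where 47.2% of protein-coding genes were. Ezh2, the histone methyltransferase of Polycomb complex 2, had 215.5 CPM in KPC180 as its highest and 85.1 in KPC469 as its lowest level, and the further subunits Suz12 and Eed lay at 93.4 to 171.4 CPM and at 44.1 to 56.2 CPM. Kmt2a, the Trithorax methyltransferase, lay between 84.6 CPM in KPC469 and 127.4 in KPC180. Only Cbx6, a chromodomain gene of complex 1, differed 4-fold or more among these 40 genes, with 295.03 CPM in KPC469 and 72.02 in KPC490 (ratio 4.10, 3.85 to 4.36). Of all genes at 1 CPM or more in a line 27.1% had such a range.

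Retinoic acid, made from vitamin A, switches on Hox genes at the head end of the clusters during development. Of 17 genes of its pathway 11 (64.7%) reached 1 CPM in a line, near the 56.9% of protein-coding genes. Of the 10 at 10 CPM or more in a line 4 differed 4-fold or more, where 15.5% of all such genes did. Aldh1a3, which makes retinoic acid, had 124.9 CPM in KPC490, 77.7 in KPC469 and 2.10 to 18.7 in the other lines. Cyp26b1, which degrades it, had 49.8 CPM in KPC469 and 0.350 in KPC850 (ratio 142.4, 65.2 to 389.01). Dhrs3 ran from 13.5 CPM in KPC142 to 68.8 in KPC850 and Stra6, a retinol uptake gene, from 1.86 in KPC490 to 13.1 in KPC469. The receptor genes Rara and Rarg were at 28.7 to 49.04 CPM over the lines, whereas Rarb had 2.87 CPM in KPC630, 0.871 or less elsewhere, and 0 counts in KPC180 and KPC469.

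**Figure D4:**
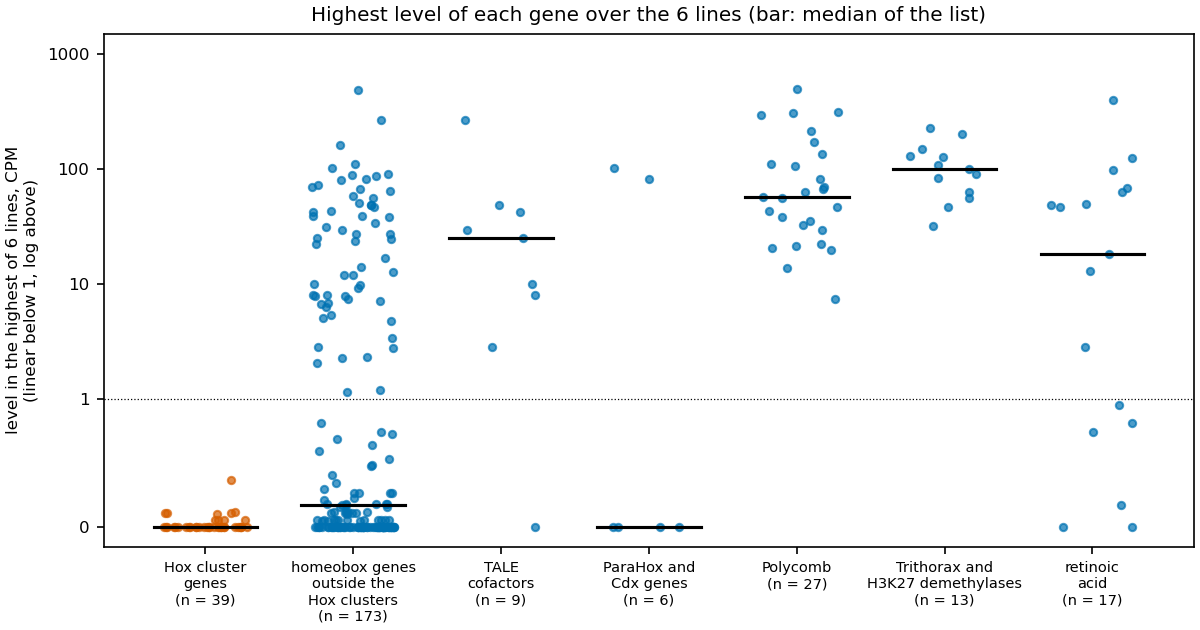
Level of each gene in its highest line, in CPM (linear below 1, logarithmic above), for the 39 Hox genes and 6 lists of related genes; each point is a gene and each bar the median of the list, and TALE, ParaHox and Cdx genes also count among the homeobox genes. Every Hox gene lies below 0.4 CPM, while 62 of 173 other homeobox genes lie at 1 CPM or more.

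Homeobox genes outside the 4 clusters, a list compiled with values of some of them known, were expressed in part. Of 173 such genes 62 (35.8%) reached 1 CPM in a line, where 56.9% of protein-coding genes did, and 38 did so in every line. In all, 61 of the 173 had 0 counts throughout, where 25.4% of protein-coding genes did. Against 0 of 39 Hox genes at 1 CPM these counts are a description, since no test over genes was made.

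The lines showed the epithelial markers of their label. All 6 epithelial genes reached 10 CPM in a line and 5 of them, Krt8, Krt18, Krt19, Cdh1 and Krt7, were at 140.5 CPM or more in every line; Epcam was highest in KPC630 at 10.5 CPM and lowest in KPC180 at 0.243 CPM. Fibroblast genes, whose cells commonly express Hox genes, summed to 0.659 CPM in KPC142 and up to 7.30 CPM in KPC469, with Dcn, Lum and Thy1 at 0 counts in every line. The 6 immune genes reached 0.659 CPM at most, the 4 endothelial genes 2.502 CPM (Kdr in KPC630), and Ins1, Ins2, Gcg and Sst had 0 counts. Of 4 acinar genes Cela1 alone passed 1 CPM, with 20.6 CPM in KPC180. The highest fibroblast sum was in KPC469, the line without a Hox read, and the part of such cells in the Hox reads was not tested.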

How the data were processed

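Per the submitters' processing notes, reads were processed with Trimmomatic 0.36, STAR 2.7.10b and RSEM 1.3.3 on GRCm39; library kits were stranded poly(A) kits per the labels' protocols. The annotation release and the strand setting are not given in the sources used here. The deposited expected counts of the authors, 1 column per line, were rounded to whole numbers. Totals were scaled by TMM factors (edgeR 4.0.16, R 4.3.3) to CPM; 1 count was worth 0.0532 to 0.0607 CPM. DESeq2 1.42.0 size factors were an alternative. Symbols, gene types, gene order and exon lengths came from GENCODE vM21 (GRCm38), which matched 52029 of 56953 identifiers; the 4924 others were not placed, so later additions to the clusters were not examined, and no coordinate of the files' build is given. Counts have exact Poisson intervals and ratios exact conditional binomial intervals (95%). A line at 0 counts entered ratios as 3 counts. Calls of 4-fold differences were tested on simulated counts of 24900 genes with counting error only. All 200 of 200 genes changed 8-fold were recovered, and 17 of 12947 unchanged genes were called. The changed genes were drawn from those with a mean of 5 CPM or more, so this check does not cover levels as low as those of the Hox genes. No significance test was made, since the labels give no groups. All members were accounted for, and genes of the 5 pathway lists at 10 CPM and 4-fold were named; other genes are named as examples, chosen after their values were seen. Some genes are not reported here by name. The members and lists were chosen with earlier results of these data known, and the list of other homeobox genes after values were seen.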

Additional observations from a re-analysis of the deposited data

How the results depend on the processing

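The number of Hox genes at 1 CPM or more in a line was 0. It was also 0 with library totals or DESeq2 size factors in place of TMM, and at 0.5 CPM. At 2 and 5 CPM it was 0 too, but this was fixed once no gene reached 1 CPM. At 1 CPM per kb of exon the 0 was fixed as well, given the highest level of 0.373 CPM and the shortest exon length of 0.874 kb. At levels chosen after seeing the data it was 6 at 0.1 CPM and 10 at 1 count or more. The number differing 4-fold or more over the lines was 0 under all 14 alternatives, those without 1 line each included (0 to 0). With no member at 1 CPM it was fixed at 0 under most of them. With no filter on level it was also fixed, since a line at 0 entered as 3 counts and no member had more than 7. These 14 values therefore say nothing about stability. The highest Hox level, Hoxa13 in KPC630, was 0.374 CPM with library totals and 0.375 CPM with DESeq2 size factors. Of 35 alternative values 33 stayed within their tolerance and 2 moved, the 2 counts at lower levels. Among the 33 were the 14 of the 4-fold count and the fixed values at 2 CPM, 5 CPM and 1 CPM per kb, which say nothing about stability. Depth limits these statements: 0 counts in a library allow a level of up to 0.160 to 0.182 CPM. No paired analysis was possible because the labels give no groups.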

Other observations

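Homeobox genes outside the Hox clusters differed widely between the lines. Of the 62 that reached 1 CPM in a line, 36 had a range of 4-fold or more, where 27.1% of all genes at that level did; those named here were chosen after their values were seen. Prrx1, a mesenchymal factor, had 90.6 CPM in KPC469, 20.7 in KPC180, 6.10 in KPC490 and 2.08 or less in the other 3 lines. Pitx1, a hindlimb factor, had 27.6 CPM in KPC180 and 1.10 or less elsewhere. Nkx2-3, which acts in gut mesenchyme and spleen, ran from 0.959 CPM in KPC142 to 43.3 in KPC469. En1, best known from the midbrain, had 64.6 CPM in KPC850, 45.7 in KPC490 and 4.37 to 21.3 in the other lines. Isx, an intestinal homeobox gene, had 16.8 CPM in KPC490, 8.62 in KPC630 and 0.180 or less in the other 4 lines.

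Onecut2, a factor of liver and pancreas development, was expressed in every line, at 232.6 to 482.6 CPM. The Dlx genes, which like the Hox genes lie in clusters, had reads in every line for Dlx1, Dlx2, Dlx3 and Dlx4 and 0 counts in every line for Dlx5 and Dlx6, with Dlx2 from 1.09 CPM in KPC469 to 22.6 in KPC630.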
